A study of Mus musculus with 5 samples.

Results

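Semaphorins are guidance ligands that share a sema domain, and plexins and neuropilins are their receptors. The genes described here are the 30 rows of the deposited count table whose symbol names a class 3 to 7 semaphorin, a plexin A, B, C or D, or neuropilin 1 or 2. They comprise 19 semaphorins, 9 plexins and 2 neuropilins among 27919 rows that carry a symbol. Members were taken by name alone, with no measured value in the rule. The forebrain of untreated C57BL/6 mouse embryos at day E12.5 was sequenced as polyadenylated RNA. Of the 5 libraries, 3 were labelled EedcKO and 2 wild type, and the submitters call the groups littermates. The protein made from Eed belongs to the core of Polycomb repressive complex 2, an enzyme that methylates lysine 27 of histone H3 and keeps developmental genes silent. Neither the Cre driver nor the deleted part of Eed is given in the sources used here, nor whether each library came from a separate embryo. P-values therefore measure only the spread between these libraries, which may be partly technical.

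Class 3 semaphorins are secreted. Most of them bind a neuropilin, which has little signalling capacity of its own and presents the ligand to an A or D plexin. Classes 4, 5 and 6 span the membrane, class 7 is tethered by a lipid anchor, and these classes bind plexins directly. The cytoplasmic part of a plexin acts on small GTPases of the RAS and RAP family and on the cytoskeleton. In the embryonic forebrain the system steers growing axons, the tangential migration of interneurons out of the ganglionic eminences, the radial migration of cortical neurons and the ingrowth of vessels.

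Of 29 members with enough counts to be tested, 6 passed edgeR's quasi-likelihood test at a false discovery rate of 0.05 over all 13989 genes tested. The membrane semaphorin Sema5a and the receptor Plxnd1 rose in EedcKO. The neuropilin Nrp2, the receptor Plxna1 and the class 6 semaphorins Sema6a and Sema6b fell, so that calls went both ways among the semaphorins and among the plexins. In bulk tissue, fewer cells of a type and less RNA per cell cannot be told apart, and the same holds for more. The count of 6 of 29 stands beside 3.2% called among all genes tested, 1.04% higher and 2.17% lower. The median log2 fold change of the tested members, EedcKO over wild type, was -0.07, against 0.01 over all genes tested. The median size of the change without its sign was 0.30 for the members and 0.16 for all genes. Of the tested members, 14 had groups that did not overlap in CPM (counts relative to the library total after TMM scaling), where 33.8% of all genes tested had such groups. Between the 2 wild-type libraries alone, the median size of the log2 ratio, on CPM plus 1, was 0.32 for the members. For all genes tested it was 0.21, so the members also differed more than other genes within wild type.

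**Figure D1:**
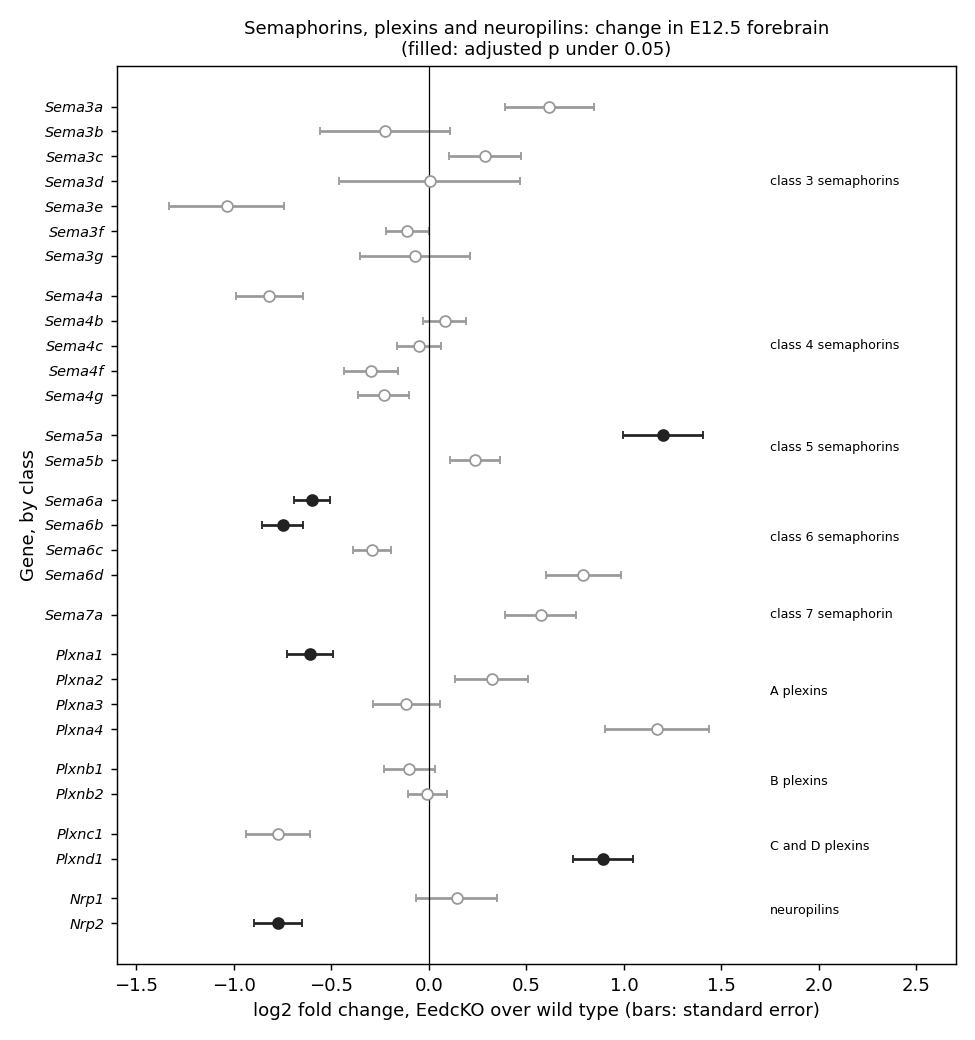
Log2 fold change (EedcKO over wild type, horizontal axis) of the 29 tested members, grouped by class, with bars of 1 standard error and filled points for adjusted p under 0.05. Filled points lie on both sides of 0, from -0.77 for Nrp2 to 1.20 for Sema5a, and class 6, the A plexins, and the C and D plexins each hold genes on both sides.

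Depth was even, with 4820630 to 5026381 counts per library, so that 3 counts correspond to 0.610 to 0.632 CPM. Members took 0.367% to 0.440% of the counts that carry a symbol. The targeted gene Eed was counted 404 times in wild type 1 (interval 366 to 445, Poisson, 95%), but only 238 times (209 to 270) in the library labelled wild type 2, close to the 251, 233 and 247 of EedcKO 1, 2 and 3. By Eed the library labelled wild type 2 thus went against its label, as far as a count over the whole gene can show, and every direction given here is drawn with it among the wild type. Between the groups Eed overlapped and did not pass (log2 fold change -0.40, edgeR adjusted p = 0.412). Counts of the Hox genes, Polycomb targets that are silent in the forebrain, summed to 2 and 134 in the libraries labelled wild type 1 and 2 and to 85, 184 and 62 in EedcKO 1, 2 and 3, so that by this sum too the library labelled wild type 2 lay within the EedcKO range. Its cortical excitatory neuron markers summed to 1032 CPM, beside 1117 CPM in wild type 1 and 1632 to 2065 CPM in EedcKO. Its hypothalamus and diencephalon markers summed to 378 CPM, beside 390 CPM in wild type 1 and 157 to 211 CPM in EedcKO. Whether the label is right was not tested. That library also stood apart by markers of tissue outside the forebrain wall, and whether such tissue added to its Hox sum was not tested. Its surface epithelium markers summed to 278 CPM, while wild type 1 had 23.8 CPM and EedcKO at most 40.1 CPM. Its choroid plexus and hem markers summed to 425 CPM, while wild type 1 had 112 CPM and EedcKO 35.7 to 192 CPM. All 10 telencephalic radial glia markers were detected in every library, with sums of 1688 and 1652 CPM in wild type and 1910, 1896 and 2001 CPM in EedcKO, which did not overlap. By Xist and Y-linked counts both wild-type libraries and EedcKO 1 were female, and EedcKO 2 and 3 were male, so sex and genotype were partly joined. No wild type was male. With sex as a covariate, as with the female libraries alone, the group effect therefore rests on EedcKO 1 against the wild type. With the female libraries alone no member passed in edgeR and 7 had an unadjusted p under 0.05 (6.27% of all genes), and the 6 genes called with all libraries had log2 fold changes of the same signs there. Without the library labelled wild type 2, 11 of 29 members passed (3 higher, 8 lower), beside 6.2% of all genes (2.07% higher, 4.12% lower). Without wild type 1, 11 passed (7 higher, 4 lower), beside 7.02% of all genes (3.01% higher, 4.02% lower). Without EedcKO 1, 4 passed (1.89% of all genes), and no member passed without EedcKO 2 (0.606% of all genes) or without EedcKO 3 (0%). With all libraries 14 members had an unadjusted p under 0.05, where 17.2% of all genes had. In the edgeR fits without EedcKO 2 and without EedcKO 3, 12 and 15 members had an unadjusted p under 0.05, as had 12.8% and 13.6% of all genes. The 6 genes called with all libraries kept their direction in each of these fits. Their groups did not overlap, so leaving libraries out, or keeping the female libraries alone, could hardly turn a sign. Scaling by library size alone called 9 members (4.83% of all genes) and DESeq2 called 10 (4.57%). Limma-trend on TPM called 1 with a pseudocount of 1 (1.28% of all genes), 1 with 0.1 (0.961%) and none with no filter (0.224%), where 13 had an unadjusted p under 0.05 (13.8% of all genes). With a replicate block and with embryo sex as a covariate edgeR called none (0% of all genes in both), and 14 and 11 members had an unadjusted p under 0.05 (15.5% and 11.5% of all genes).

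**Figure D2:**
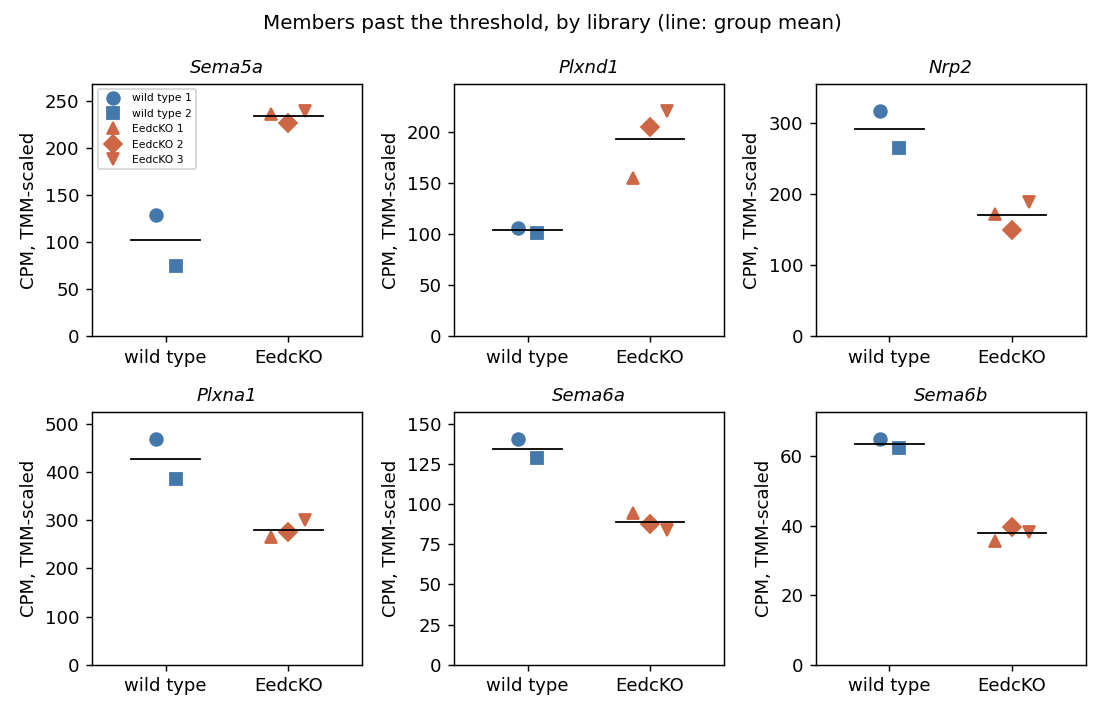
CPM in each library (vertical axis, from 0) for the 6 members past the threshold, with wild type in blue, EedcKO in orange and a line at each group mean. The groups do not overlap in any panel, and the gap between the wild-type libraries is widest, as a ratio, in Sema5a, at 129 and 75.0 CPM.

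Sema5a is a transmembrane semaphorin whose extracellular part carries thrombospondin repeats (chromosome 15, 32244810 to 32696341, plus strand, mm10). It was counted 612 and 369 times in the libraries labelled wild type 1 and 2, and 1131, 1094 and 1169 times in EedcKO 1, 2 and 3. The EedcKO libraries lay close together and above both wild types, which differed from each other. Scaled, the level was 102 ± 38.2 CPM (SD, n = 2) in wild type and 234 ± 6.91 CPM (SD, n = 3) in EedcKO. The log2 fold change was 1.20 (standard error 0.21; edgeR adjusted p = 0.0314). It was 0.87 without the library labelled wild type 2 and 1.63 without wild type 1. The other class 5 gene, Sema5b, is built in the same way. It had 857 and 671 counts in the libraries labelled wild type 1 and 2 and 950, 874 and 880 in EedcKO 1, 2 and 3, and did not pass (log2 fold change 0.23, 95% interval -0.07 to 0.54, edgeR adjusted p = 0.420). After CPM scaling its groups overlapped, since wild type 1 (181 CPM) lay beside EedcKO 2 and 3 (181 and 180 CPM). With each library left out in turn the log2 fold change of Sema5b ranged from 0.05 to 0.44.

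Class 6 semaphorins are transmembrane ligands of A plexins that can also signal inward. Sema6b (chromosome 17, 56123085 to 56140343, minus strand) had the smallest p of all members. It had 308 and 306 counts in the libraries labelled wild type 1 and 2 and 170, 192 and 186 in EedcKO 1, 2 and 3. It fell, and averaged 63.6 ± 1.92 CPM (SD, n = 2) in wild type against 37.8 ± 2.13 CPM (SD, n = 3) in EedcKO, with little spread in either group (log2 fold change -0.75 with a standard error of 0.10; edgeR adjusted p = 0.0156). Sema6a, a ligand of Plxna2 and Plxna4, lies on chromosome 18 (47235598 to 47368870, minus strand). It had 667 and 633 counts in the libraries labelled wild type 1 and 2, and 454, 424 and 409 in EedcKO 1, 2 and 3. It fell, with averages of 135 ± 8.43 CPM (SD, n = 2) in wild type and 88.8 ± 5.55 CPM (SD, n = 3) in EedcKO (log2 fold change -0.60 with a standard error of 0.09; edgeR adjusted p = 0.0220). Again each EedcKO library lay below both wild types. Sema6c, on chromosome 3, had 215 and 187 CPM in wild type and 162, 156 and 175 CPM in EedcKO, with a log2 fold change of -0.29 that did not pass (edgeR adjusted p = 0.182). Sema6d, a ligand of Plxna1, differed in sign from the other 3. It had 685 and 445 counts in the libraries labelled wild type 1 and 2 and 874, 1058 and 1016 in EedcKO 1, 2 and 3. Its groups did not overlap, but its log2 fold change of 0.79 (standard error 0.19) missed the threshold (edgeR adjusted p = 0.0798). It passed in edgeR without wild type 1 (1.15, edgeR adjusted p = 0.00341) and without the library labelled wild type 2 (0.50, edgeR adjusted p = 0.0448). Within a library, the ratio of Sema6d to Sema6b in deposited TPM (abundance per transcript length) was 0.836 and 0.546 in the libraries labelled wild type 1 and 2, and 1.93, 2.07 and 2.05 in EedcKO 1, 2 and 3. This ratio and the others given here were chosen after the values were seen and carry no test.

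Of the secreted class 3 semaphorins none of 7 passed in edgeR, and 2 had an unadjusted p under 0.05, where 17.2% of all genes had. Sema3a, a repellent that acts through Nrp1 and A plexins, had 267 and 171 counts in the libraries labelled wild type 1 and 2 and 369, 369 and 273 in EedcKO 1, 2 and 3. The groups touched after scaling, as wild type 1 (56.3 CPM) stood beside EedcKO 3 (56.0 CPM), and the log2 fold change of 0.62 did not pass (edgeR adjusted p = 0.217). Without wild type 1 it was 0.99 and passed (edgeR adjusted p = 0.0260). Sema3e, which binds Plxnd1 without a neuropilin, was scarce, with 47 and 42 counts in the libraries labelled wild type 1 and 2 and 22, 17 and 26 in EedcKO 1, 2 and 3. Its groups did not overlap and its log2 fold change was -1.04 (standard error 0.29), but at these counts it did not pass (edgeR adjusted p = 0.114). Sema3c, a ligand of neuropilins with Plxnd1, had 202 to 315 counts, and Sema3f, the main ligand of Nrp2, had 276 to 334. Both had overlapping groups, with log2 fold changes of 0.29 (95% interval -0.14 to 0.72) and -0.11 (95% interval -0.37 to 0.15). Sema3g had 34 to 54 counts, Sema3b 16 to 25 and Sema3d 8 to 15. At these depths the 95% interval of the Sema3d log2 fold change ran from -1.08 to 1.08, so that even a change of 1 log2 unit was hardly detectable.

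Class 4 semaphorins are transmembrane ligands mainly of B plexins. The rows hold Sema4a, Sema4b, Sema4c, Sema4f and Sema4g, and none carries the symbol Sema4d, so that gene is not covered here. None of these 5 passed in edgeR. An unadjusted p under 0.05 was found for 1 of them, where 17.2% of all genes had one. The gene with this unadjusted p was Sema4a (chromosome 3, 88435959 to 88461182, minus strand). It had 224 and 217 counts in the libraries labelled wild type 1 and 2 and 153, 107 and 115 in EedcKO 1, 2 and 3. Every EedcKO library lay below both wild types, and the log2 fold change of -0.82 (standard error 0.17) fell just short of the threshold (edgeR adjusted p = 0.0512). It passed in edgeR with RLE size factors, in limma-voom and in DESeq2 (adjusted p of 0.0486, 0.0469 and 0.0184). It did not pass in limma-trend on TPM plus 1 (adjusted p = 0.114). With embryo sex as a covariate the log2 fold change was smaller, -0.52, and did not pass. As both male libraries are EedcKO, that value rests on EedcKO 1 against the wild type. Sema4c and Sema4g, ligands of Plxnb2, had log2 fold changes of -0.05 (95% interval -0.31 to 0.21) and -0.23 (-0.54 to 0.07). Sema4b had 0.08 (-0.17 to 0.34) and Sema4f -0.30 (-0.62 to 0.03). With each library left out in turn Sema4g ranged from -0.42 to -0.02. The lipid-anchored Sema7a, which binds Plxnc1 and beta1 integrins, had 192 and 158 counts in the libraries labelled wild type 1 and 2 and 206, 284 and 293 in EedcKO 1, 2 and 3. Its CPM did not overlap between groups, though EedcKO 1 (43.0 CPM) lay close to wild type 1 (40.5 CPM), and it did not pass (log2 fold change 0.57, edgeR adjusted p = 0.150).

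Among the receptors, Plxnd1 was the plexin that rose. It is a receptor of Sema3e, and of other class 3 ligands with neuropilins, known from vessels and from some neurons (chromosome 6, 115954811 to 115995005, minus strand). It had 505 and 500 counts in the libraries labelled wild type 1 and 2 and 741, 988 and 1077 in EedcKO 1, 2 and 3. The wild-type libraries were nearly equal, and EedcKO 1 lay between them and the other EedcKO libraries. Wild type averaged 104 ± 3.40 CPM (SD, n = 2) and EedcKO 193 ± 34.4 CPM (SD, n = 3), a log2 fold change of 0.89 (standard error 0.15; edgeR adjusted p = 0.0283). With the female libraries alone, which leave EedcKO 1 against the wild type, it was 0.58. None of 10 tested endothelial markers passed in edgeR, which is near the 3.2% called among all genes tested. Their sums overlapped between the groups (198 to 277 CPM in wild type, 213 to 288 CPM in EedcKO). Whether vessels had a part in the change of Plxnd1 was not tested.

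Plxnc1, the receptor of Sema7a, stood on the other side (chromosome 10, 94790866 to 94944835, minus strand). It had 875 and 658 counts in the libraries labelled wild type 1 and 2 and 522, 415 and 410 in EedcKO 1, 2 and 3. The groups did not overlap, but the log2 fold change of -0.77 (standard error 0.17) missed the threshold (edgeR adjusted p = 0.0546). It was -0.98 and passed without the library labelled wild type 2 (edgeR adjusted p = 0.00631). The ratio of Plxnd1 to Plxnc1 in TPM was 0.660 and 0.869 in the libraries labelled wild type 1 and 2, and 1.62, 2.72 and 3.004 in EedcKO 1, 2 and 3.

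A plexins are the usual signalling partners of neuropilins and receptors of class 6 ligands. Plxna1 (chromosome 6, 89316314 to 89362620, minus strand) had 2226 and 1901 counts in the libraries labelled wild type 1 and 2 and 1274, 1330 and 1462 in EedcKO 1, 2 and 3. It fell, averaging 428 ± 58.5 CPM (SD, n = 2) in wild type against 280 ± 17.4 CPM (SD, n = 3) in EedcKO, and every EedcKO library lay below both wild types (log2 fold change -0.61 with a standard error of 0.12; edgeR adjusted p = 0.0390). The annotation places exons of the antisense gene Gm26811 over 10.7% of its exon bases, and since the use of strand in counting is not given, reads of both may be joined. Plxna4, a receptor of Sema3a and Sema6a (chromosome 6, 32144268 to 32588192, minus strand), had 941 and 544 counts in the libraries labelled wild type 1 and 2 and 1321, 1942 and 1784 in EedcKO 1, 2 and 3. The groups did not overlap, yet the wild types differed by a factor of 1.79 in CPM. The log2 fold change of 1.17 (standard error 0.27) did not pass (edgeR adjusted p = 0.0706), while DESeq2 called it (adjusted p = 0.0300). Without wild type 1 it was 1.64 (edgeR adjusted p = 0.0109), and without the library labelled wild type 2 it was 0.82 (edgeR adjusted p = 0.0656). The ratio of Plxna4 to Plxna1 in TPM was 0.271 and 0.184 in the libraries labelled wild type 1 and 2 and 0.666, 0.937 and 0.783 in EedcKO 1, 2 and 3.

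Plxna2 had overlapping groups, as wild type 1 (539 CPM) lay within the EedcKO range of 513 to 591 CPM and the library labelled wild type 2 below it at 342 CPM. Its log2 fold change was 0.32 (95% interval -0.12 to 0.76). X-linked Plxna3, with Nrp2 a receptor for Sema3f, had -0.12 (-0.52 to 0.29). With each library left out in turn Plxna2 ranged from 0.04 to 0.67 and Plxna3 from -0.39 to 0.22. The B plexins, which bind class 4 ligands, had values near 0. Plxnb1 had a log2 fold change of -0.10 (-0.40 to 0.20) and Plxnb2 of -0.01 (-0.24 to 0.22), so changes beyond those bounds are outside the 95% intervals. Plxnb3, a receptor of Sema5a, had 1, 3, 1, 0 and 1 counts in the libraries labelled wild type 1 and 2 and in EedcKO 1, 2 and 3, too few to be tested, and no fold is given.

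Neuropilins are the obligate co-receptors of most class 3 semaphorins and also bind VEGF. Nrp2 marks many migrating interneurons and is the high-affinity receptor of Sema3f (chromosome 1, 62703285 to 62818695, plus strand). It had 1502 and 1302 counts in the libraries labelled wild type 1 and 2 and 824, 724 and 917 in EedcKO 1, 2 and 3. It fell, averaging 291 ± 36.7 CPM (SD, n = 2) in wild type and 170 ± 19.2 CPM (SD, n = 3) in EedcKO, and the groups lay well apart (log2 fold change -0.77 with a standard error of 0.12; edgeR adjusted p = 0.0240). Nrp1, the receptor of Sema3a and of VEGF, did not pass (log2 fold change 0.14, 95% interval -0.35 to 0.63). It was counted 300 times in wild type 1 but 182 times in the library labelled wild type 2, and the EedcKO libraries with 244, 284 and 273 lay between them. Its sign turned to -0.19 without the library labelled wild type 2. The ratio of Nrp2 to Nrp1 in TPM was 4.14 and 5.91 in the libraries labelled wild type 1 and 2, and 2.79, 2.11 and 2.78 in EedcKO 1, 2 and 3.

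**Figure D3:**
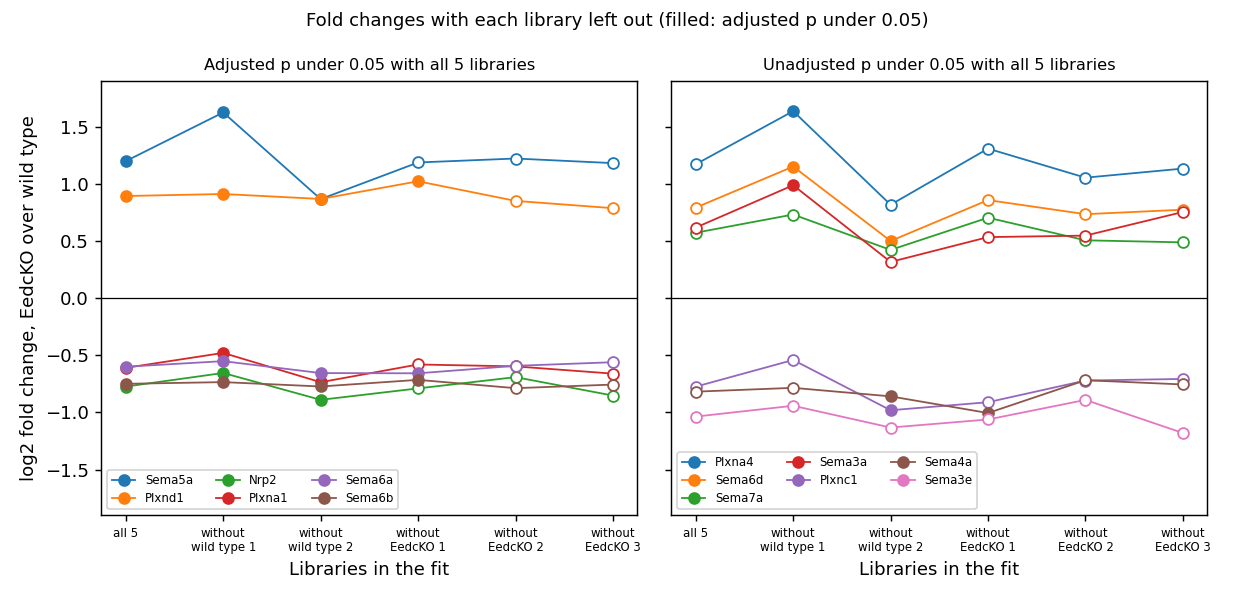
Log2 fold change (vertical axis) of the 6 called members, left, and of 7 members with an unadjusted p under 0.05 and a log2 fold change beyond 0.5 in size, right, with all libraries and with each library left out (horizontal axis), filled where adjusted p is under 0.05. No line crosses 0, the upward changes of Sema5a, Plxna4 and Sema6d are largest without wild type 1, and no point is filled without EedcKO 2 or EedcKO 3. Except for Sema3a the groups of these genes did not overlap in CPM, so a change of sign was hardly possible.

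Promoter sequence is shown for 4 of the 6 called members because Polycomb complexes in mammals occupy mainly promoters rich in CpG dinucleotides. RefSeq windows (GRCm38.p6, 250 bases before to 50 after a start site) matched 25 of the 30 members with 34 windows. The promoters of Plxna1 and Sema6a are not analysed here. The stretches below run 5′ to 3′ on the gene's strand from 250 to 51 bases before the start, with each CpG in capitals. Sema5a and Plxnd1 rose, and Nrp2 and Sema6b fell. They lie at chr15:32244563-32244762 (plus strand), chr6:115995056-115995255 (minus strand), chr1:62703067-62703266 (plus strand) and chr17:56140394-56140593 (minus strand).
Sema5a: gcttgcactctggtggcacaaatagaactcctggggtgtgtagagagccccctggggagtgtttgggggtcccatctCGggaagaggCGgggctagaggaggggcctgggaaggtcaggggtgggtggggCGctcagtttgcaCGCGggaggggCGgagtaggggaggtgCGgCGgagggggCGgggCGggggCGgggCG
Plxnd1: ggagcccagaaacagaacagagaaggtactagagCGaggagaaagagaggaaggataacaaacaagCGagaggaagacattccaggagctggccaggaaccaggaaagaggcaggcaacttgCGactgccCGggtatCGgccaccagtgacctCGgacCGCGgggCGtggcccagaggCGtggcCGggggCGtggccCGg
Nrp2: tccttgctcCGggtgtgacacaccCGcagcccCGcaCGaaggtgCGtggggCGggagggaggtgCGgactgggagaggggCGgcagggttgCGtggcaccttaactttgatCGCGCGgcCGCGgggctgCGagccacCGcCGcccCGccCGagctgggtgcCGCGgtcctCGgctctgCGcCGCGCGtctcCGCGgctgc
Sema6b: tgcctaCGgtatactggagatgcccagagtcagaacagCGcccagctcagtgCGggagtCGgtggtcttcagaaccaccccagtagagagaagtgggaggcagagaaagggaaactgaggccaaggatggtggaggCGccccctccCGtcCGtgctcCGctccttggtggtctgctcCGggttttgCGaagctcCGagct
The Sema5a stretch overlaps an annotated exon of the neighbouring gene Snhg18. Nrp2 holds the most CpG, 28 in 200 bases, against 12 in Sema5a, 13 in Plxnd1 and 11 in Sema6b. The ratio of observed to expected CpG over the 300-base window was 0.99 for Nrp2, 0.83 for Sema6b, 0.72 for Plxnd1 and 0.66 for Sema5a. These 4 windows were above 0.6, those of both genes that rose and of 2 of the 4 genes that fell. For Sema6b this depended on the window and its span. The 200-base stretch of Sema6b alone had 0.59, and a second Sema6b window, at chr17:56133803-56134102, had 0.25. Among all member windows 18 of 34 (52.9%) reached 0.6, against 67.5% of the 14081 windows of genes tested. The motif CAGATG, searched on both strands, was found in 2 member windows (5.88%), of Sema3c and Sema4a, and in 11.7% of the windows of genes tested. TAATTA was found in none of the member windows and in 2.68% of the windows of genes tested. A match describes these letters only and is no measure of binding.

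Per length, plexins took 5 of the 7 highest ranks, and the ligands Sema6c and Sema4c the others. By mean TPM over the 5 libraries Plxnb2 (231), Plxnb1 (192) and Plxna1 (181) led, followed by Sema6c (146), Plxna2 (142), Plxna3 (140) and Sema4c (138). Plxnb2 also varied least, from 220 to 245 TPM. The neighbours Sema6c, Plxna2, Plxna3 and Sema4c had overlapping ranges across libraries and cannot be ordered. In wild type Plxna1 was among the highest members (248 and 206 TPM), and in EedcKO (143, 147 and 159 TPM) its range met that of Plxna2 (146, 166 and 153 TPM). Plxna4 had 67.3 and 37.9 TPM in wild type and 95.5, 138 and 125 TPM in EedcKO. Nrp2 (61.1 to 128 TPM) lay above Nrp1 (18.3 to 30.9 TPM) in every library. Sema5a lay below Sema5b in every library, with a TPM ratio of 0.271 and 0.208 in the libraries labelled wild type 1 and 2 and of 0.451, 0.474 and 0.503 in EedcKO 1, 2 and 3. Among the secreted ligands, Sema3g, Sema3b, Sema3e and Sema3d stayed between 0.917 and 11.998 TPM. Summed TPM of the neuropilins was 159 and 126 in the libraries labelled wild type 1 and 2 and 96.4, 90.2 and 104 in EedcKO 1, 2 and 3, so that the groups were apart. The A plexins summed to 643 and 456 TPM in wild type and 529, 582 and 570 TPM in EedcKO, with overlap.

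**Figure D4:**
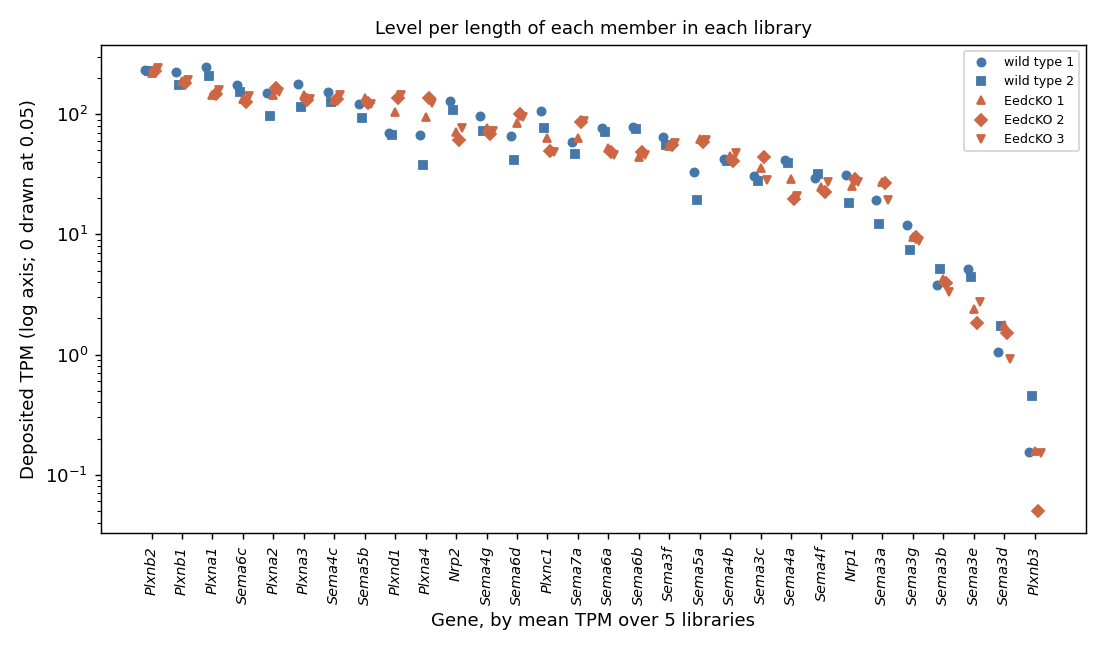
Deposited TPM (vertical log axis, 0 drawn at 0.05) of each of the 30 members in each library, ordered by mean over 5 libraries, with wild type in blue and EedcKO in orange. Plexins fill most of the upper end, the libraries of Plxnb2 lie between 220 and 245, and wild-type and EedcKO points part in opposite directions for Plxna1 and Plxna4.

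Known pairs of ligand and receptor were listed with earlier results of these data known. Of 13 listed pairs with both genes tested, 6 had log2 fold changes of the same sign, and in none did both genes pass. Sema4c, Plxnb2, Sema3f and Plxna3, with small changes, turned in sign when single libraries were left out. The tally of signs therefore shows no general rule for ligands and receptors. Sema3a and Plxna4 both had positive values (0.62 and 1.17). Sema6a fell while its receptors Plxna2 (0.32) and Plxna4 (1.17) had positive values that did not pass. Sema6d (0.79) and Plxna1 (-0.61), Sema7a (0.57) and Plxnc1 (-0.77), and Sema3e (-1.04) and Plxnd1 (0.89) had opposite signs.

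Of 58 tested genes in 5 lists that act with or downstream of these receptors, 2 passed, both lower. This is 3.45% beside 3.2% of all genes, and the median size of the change was 0.17 on the log2 scale beside 0.16 for all genes. An unadjusted edgeR p under 0.05 was found for 9 of the 58, and for 17.2% of all genes, so the lists did not stand out by this count. Among 17 co-receptors and adhesion partners, Chl1 fell. It encodes an L1-family adhesion molecule that joins neuropilin complexes, and had 1059 and 612 counts in the libraries labelled wild type 1 and 2 and 308, 391 and 296 in EedcKO 1, 2 and 3 (log2 fold change -1.34 with a standard error of 0.25; edgeR adjusted p = 0.0396). Among 5 collapsin response mediator proteins, which carry the Sema3a signal to microtubules, Dpysl4 fell, with averages of 174 ± 17.2 CPM (SD, n = 2) in wild type and 111 ± 3.05 CPM (SD, n = 3) in EedcKO (log2 fold change -0.65 with a standard error of 0.09; edgeR adjusted p = 0.0165). The other 4 of that list had log2 fold changes of -0.13 to -0.20 that did not pass. None of 18 GTPases and their regulators passed in edgeR, with 1 at an unadjusted p under 0.05, Rnd2 (0.48, edgeR adjusted p = 0.0532), and Rasa1 next (0.21, edgeR adjusted p = 0.418). None of 14 kinases and other effectors passed, with 4 at an unadjusted p under 0.05, led by Limk2 (-0.37, edgeR adjusted p = 0.0584) and Cdk5r1 (-0.39, edgeR adjusted p = 0.0978). None of 4 VEGF genes passed, with 1 at an unadjusted p under 0.05, Pgf (-0.90, edgeR adjusted p = 0.198), and Vegfb next (0.22, edgeR adjusted p = 0.519). Without the library labelled wild type 2, 9 of 58 passed (2 higher, 7 lower; 6.2% of all genes), and without EedcKO 2 or EedcKO 3 none.

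The regional and cell type markers of the same libraries moved as well, and their part in these results was not tested. The counts of calls below stand beside 1.04% higher and 2.17% lower among all genes tested. Ventral telencephalon markers, genes of the region where interneurons that carry Nrp2 arise, summed to 2312 and 1702 CPM in the libraries labelled wild type 1 and 2 and to 1361, 911 and 887 CPM in EedcKO 1, 2 and 3, with 4 of 14 genes lower and none higher. Cortical excitatory neuron markers summed to 1117 and 1032 CPM in wild type and to 1632, 2065 and 2006 CPM in EedcKO, with 8 of 10 higher. Pan-neuronal markers summed to 3239 and 2548 CPM in wild type and to 2287 to 2481 CPM in EedcKO, with 3 of 10 lower. Hypothalamus and diencephalon markers summed to 390 and 378 CPM in wild type and to 157 to 211 CPM in EedcKO, with 3 of 7 tested lower, and Otp was at 0 in EedcKO 1. Telencephalic radial glia markers had 2 of 10 higher, and Cajal-Retzius markers 3 of 7 lower, with sums of 658 and 703 CPM in wild type and 522 to 543 CPM in EedcKO. None of the tested pericyte, microglia, meninges or erythroid markers passed in edgeR (7, 8, 11 and 8 genes), and the sums of each list overlapped between the groups. Surface epithelium, choroid plexus and striated muscle markers had no call either (7, 7 and 4 genes tested). At 3.2% called among all genes tested, lists this short would hold few calls in any case. The muscle markers reached 68.5 CPM in the library labelled wild type 2, while each of the others had at most 11.7 CPM.

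Most members were higher in wild type 1 than in the library labelled wild type 2. Of the 29 tested members, 26 had a higher CPM in wild type 1 than in the library labelled wild type 2, against 7362 of 13989 genes, and Sema3b, Sema3d and Sema4f were the exceptions. The median log2 ratio of wild type 1 to wild type 2, on CPM plus 1, was 0.28 for the members and 0.02 for all genes. For Nrp2, Plxna1, Sema6a and Sema6b, which fell, the library labelled wild type 2 lay between wild type 1 and EedcKO. For Plxna4, Sema5a and Sema6d the library labelled wild type 2 was the lowest of all 5 libraries, although its Eed count stood at the EedcKO level.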

How the data were processed

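The submitters' processing notes name HISAT2 2.2.0 and mm10. The sources used here do not give the counting tool, its use of strand or the annotation. What the authors deposited is whole-number counts per gene for 5 libraries and a table of TPM. The counts sum to far less than the mapped reads that the submitters state, and the reason is not given. Rows without a symbol (28277, 2.01% to 2.16% of counts) were left out of library sizes and tests. The test was edgeR 4.0.16 in R 4.3.3: filterByExpr, TMM, robust glmQLFit and glmQLFTest on the group, with Benjamini-Hochberg adjustment over the tested genes (threshold 0.05). Standard errors are the size of the log2 fold change over the square root of F, and 95% intervals use the fit's degrees of freedom. Poisson intervals cover counting error only. The fit was also run on simulated counts. These held no sex difference and no library that departed from its group. They therefore say nothing of the sex split or of the library labelled wild type 2. The table held 0 columns of samples outside the series.

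Members, lists, named genes (all members, and per pathway list up to 4 calls or the 2 smallest p) and pairs were chosen with earlier results of these data known. Alternatives were DESeq2 1.42.0, limma-voom (limma 3.58.1), scaling by RLE or by library size alone, other count filters, limma-trend on log2 TPM plus 1 or 0.1, sex as a covariate, female libraries alone, a replicate block and each library left out. Coordinates are from GENCODE by symbol, 1-based, on mm10. Promoter windows are from RefSeq on GRCm38.p6.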

Additional observations from a re-analysis of the deposited data

How the results depend on the processing

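With 2 and 3 libraries per group the calls rest on few samples, and wild type 1 and the library labelled wild type 2 differ for many members. Counts of all genes, members and pathway genes past the threshold were 448, 6 and 2 with all libraries. They were 675, 9 and 5 with library size alone, and DESeq2 called 10 members and 5 pathway genes. Limma-trend on TPM gave 203, 1 and 1 with a pseudocount of 1, 152, 1 and 1 with 0.1, and 42, 0 and 0 with no filter. With the replicate block, with embryo sex as a covariate and with the female libraries alone each count was 0 in edgeR, where 14, 11 and 7 members had an unadjusted p under 0.05. These 3 fits leave few degrees of freedom. With sex as a covariate and with the female libraries alone the group effect is the same contrast, EedcKO 1 against the wild type. Replicate numbers are shared by label only. Deviations of same-numbered libraries had r across genes of -0.01 and 0.13, but with 2 wild-type libraries these deviations mirror each other, so that r cannot show whether the numbers pair them. With each library left out the counts ranged from 0 to 1012 for all genes, 0 to 11 for members and 0 to 9 for pathway genes. Without EedcKO 3 all 3 counts were 0 in edgeR; 1887 genes, 15 members and 8 pathway genes had an unadjusted p under 0.05. No called member changed sign in any of 17 alternatives, which groups without overlap made nearly certain beforehand. Members with a log2 fold change near 0 did change sign. With each library left out in turn the log2 fold change ranged from -0.19 to 0.56 for Nrp1, -0.39 to 0.22 for Plxna3, -0.28 to 0.0909 for Plxnb1, -0.0572 to 0.0249 for Plxnb2, -0.44 to 0.00707 for Sema3b, -0.31 to 0.39 for Sema3d, -0.22 to 0.00388 for Sema3f, -0.38 to 0.31 for Sema3g and -0.18 to 0.0849 for Sema4c. Sema3d also turned with library size alone (-0.0141) and in limma-voom (-0.00967). The cause was not tested.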
